A study of Mus musculus with 24 samples.

Results

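Differentiation was followed in immortalised cells of mouse inguinal white fat that carried a mutant NFIA, by comparing day 7 with day 0. The 6 libraries labelled Cre + NFIA deltapro#3 entered the comparison, 3 at each day, out of 24 libraries in 8 groups. Genes whose FPKM (reads scaled to 1 kilobase of gene and 1000000 reads of library) was at least 1 in at least 3 of these 6 libraries were tested, which left 11636 of 24825 genes. All cells were stromal vascular fraction cells, a mixed preparation that holds adipocyte precursors, from Nfia flox/flox mice and were immortalised with SV40 large T antigen. The mutant cells carried retroviral Cre and a retroviral, FLAG-tagged NFIA, Δpro#3, that lacks the C-terminal end of its proline-rich segment. The other cell types were ctrl, Cre, and Cre + NFIA, which carried FLAG-tagged full-length NFIA. Day 0 libraries were taken before induction and day 7 libraries after a thermogenic adipocyte cocktail. It opened with isobutylmethylxanthine, indomethacin, dexamethasone, insulin, T3 and rosiglitazone, and insulin, T3 and rosiglitazone were kept to the end. Time after confluence and this medium changed together, so their effects cannot be told apart. The cells were infected cultures measured in bulk, and the labels do not say whether replicates were separate cultures, so p-values measure the spread between these libraries.

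NFIA belongs to the nuclear factor I transcription factors and binds enhancers of the fat cell programme together with PPARγ, the adipogenic nuclear receptor. In adipogenesis early C/EBP factors are followed by PPARγ and C/EBPα, which activate genes of lipid uptake, triglyceride storage and adipokine secretion, while precursors make extracellular matrix, chemokines and contractile proteins. Brown and beige fat cells add a thermogenic programme around the uncoupling protein UCP1 and a large set of mitochondrial enzymes.

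The targeted gene was examined first. In mutant cells Nfia (chromosome 4 of mm9, 97439425 to 97868605, plus strand) was at 61.7, 59.7 and 60.7 FPKM at day 0 and at 111, 99.5 and 95.0 FPKM at day 7. The day 7 libraries all lay above the day 0 libraries, with a change of 0.74 ± 0.07 (SE) in log2(FPKM + 1) and a limma adjusted p of 4.43e-08. These values include the transgene. At day 7 ctrl had a mean of 9.55 FPKM and the libraries labelled Cre one of 10.1 FPKM. Cre removes exon 2 only, so the gene-level value does not check that label. The other members of the family did not pass the test. Nfib was at 1.34, 1.56 and 1.58 FPKM at day 0 and at 0.946, 1.58 and 2.32 FPKM at day 7, Nfic had a change of 0.13 (adjusted p = 0.235) and Nfix a change of 0.14 (adjusted p = 0.108).

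The 6 libraries held 11669275 to 12770740 reads, and the first principal component of their log2 values, which separated the days, held 77.7% of the variance. Within a day the correlation of libraries across genes was 0.988 to 0.993, and between days it was 0.949 to 0.962. Replicate 1 of day 7 stood apart in adipocyte genes, as given with them, and list counts of the day 0 to day 7 change that moved by over 1.5 times without it are given both ways. The adipose precursor markers Pdgfra and Pdgfrb were at 48.1 to 51.8 and 79.0 to 83.2 FPKM at day 0. Epithelial markers (Epcam, Krt8, Krt18 and Cdh1) had at most 3 reads in any of the 6 libraries, as had Cdh5, Emcn, Ptprc, Adgre1 and Sox10. The summed level of 5 macrophage and leukocyte markers was 12.9 to 13.6 FPKM at day 0 and 9.78 to 10.5 FPKM at day 7, and that of 5 endothelial markers 5.09 to 5.57 and 4.47 to 5.03 FPKM. The sum of 5 mesothelial markers was 1.97 to 2.84 FPKM at day 0 and 5.85 to 8.48 FPKM at day 7, with Msln, Upk3b and Lrrn4 at most at 3 reads, and the part of such cells in the results was not tested. The sum of 4 Schwann cell markers was 0.700 to 1.08 FPKM at day 0 and 1.01 to 1.20 FPKM at day 7, and that of 6 bone and cartilage markers 22.7 to 26.1 and 38.9 to 42.4 FPKM. Of these 6, 3 were tested and 1 passed as higher.

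From day 0 to day 7, 182 genes were called. A called gene had an adjusted p (limma, Benjamini-Hochberg) under 0.05 and differed 3-fold or more in FPKM + 1. Of these, 143 were higher at day 7 (1.23% of the genes tested) and 39 were lower (0.335%). Without the fold threshold 2927 genes passed the adjusted p as higher (25.2%) and 2118 as lower (18.2%), and with median-of-ratios scaling these became 2385 and 2573, so the balance of small changes depends on scaling. A gene is said here to have risen or fallen when its adjusted p was under 0.05. The filter let in 247 genes through day 7 alone and 53 through day 0 alone, and such genes had to differ between the days. Of the called genes, 53 of the 143 and 6 of the 39 were admitted through 1 day only. The largest rises were in Cidec, Adipoq, G0s2, Fabp4, Gpd1, Plin1, Cd36, Aldh1a7, Adig, Gdf10, Cdo1 and Adh1. The largest falls were in Saa3, Lcn2, Nos2, Cxcl5, Cxcl1, Cbr2, Col24a1, Map3k7cl, Cebpd, Epha1, Ifi208 and Sphk1.

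**Figure D1:**
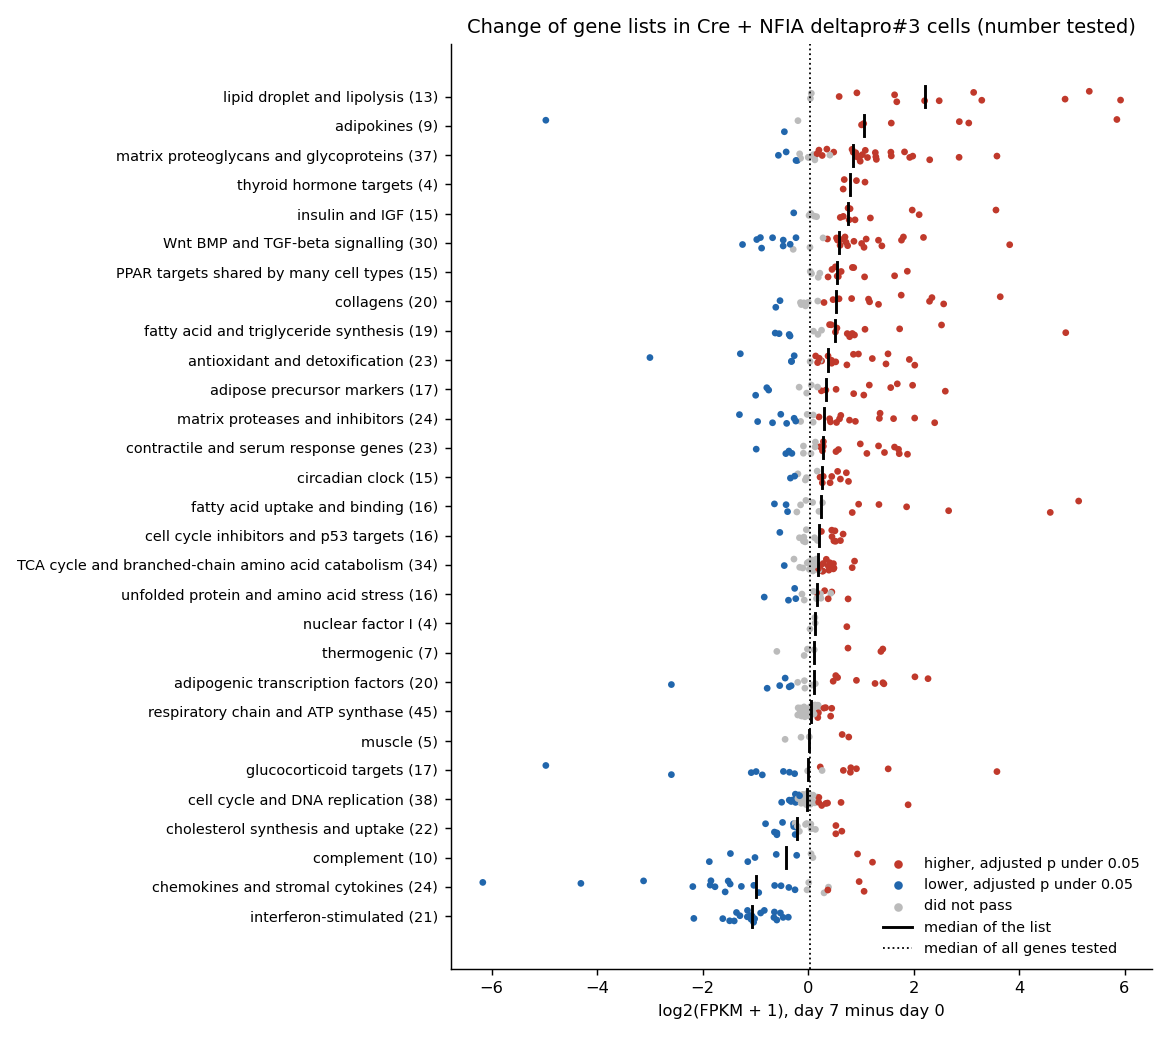
Change of each tested member of 29 gene lists in the mutant cells, as log2(FPKM + 1) at day 7 minus day 0 on the x axis, with 1 row per list ordered by its median (black bar) and the number of tested members in brackets. Interferon-stimulated genes lie wholly left of 0 with a median of -1.06, lipid droplet genes have a median of 2.21, and respiratory chain genes lie close to the dotted median of all genes (0.04).

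The largest fall was that of Saa3, an acute-phase serum amyloid A (chromosome 7, 53967368 to 53971046). Its level was 1277, 1195 and 967 FPKM at day 0 and at 13.7, 16.7 and 14.4 FPKM at day 7. The groups did not overlap, and the fall was -6.17 ± 0.20 in log2(FPKM + 1) with an adjusted p of 1.41e-15. Lcn2, the siderophore-binding protein lipocalin 2, was at 106, 104 and 75.1 FPKM at day 0 and at 1.31, 2.52 and 2.40 FPKM at day 7 (change -4.97 ± 0.17, adjusted p = 3.55e-15). Nos2, the inducible nitric oxide synthase, was at 30.2, 30.8 and 21.3 FPKM at day 0 and at 0.0598, 0.115 and 0.0734 FPKM at day 7 (change -4.70 ± 0.14). For all these genes every day 7 library lay far below every day 0 library, and the rule that named them required days without overlap. Nos2 passed the filter through day 0 only.

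Among the chemokines, Cxcl5 and Cxcl1, which attract neutrophils, fell most. Cxcl5 was at 343, 281 and 324 FPKM at day 0 and at 16.3, 12.4 and 16.5 FPKM at day 7 (change -4.31 ± 0.13, adjusted p = 6.42e-16). Cxcl1 was at 346, 305 and 296 FPKM at day 0 and at 36.3, 35.5 and 34.4 FPKM at day 7 (change -3.12 ± 0.09). Ccl2, which attracts monocytes, stayed abundant, at 1699, 1761 and 1869 FPKM before and at 530, 479 and 478 FPKM after (change -1.84 ± 0.09). Of 31 chemokines and stromal cytokines listed, 24 were tested and 17 fell, 7 of them called, against 18.2% and 0.335% of all genes, while 3 rose (Cx3cl1, Hgf and Vegfc). The list median was -0.98. Without replicate 1 of day 7, 16 fell and 7 were called. The stromal chemokine Cxcl12 went from 162, 159 and 162 FPKM to 52.1, 50.4 and 58.2 FPKM, and the cytokine Il6 from 12.4, 9.42 and 11.5 FPKM to 1.65, 1.23 and 2.14 FPKM. Complement factor genes went the same way in part. Of 10 tested of 14, 6 fell, among them Cfb (change -1.87, called) and C3 (change -1.47), C4b by -0.21, and 2 rose, C2 by 1.22 and Cd59a by 0.94.

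The other genes among the 12 largest falls were of several kinds. Epha1, a receptor of ephrins, went from 26.2, 24.3 and 26.0 FPKM to 4.63, 3.64 and 2.84 FPKM (change -2.51 ± 0.12). Sphk1, which makes the lipid signal sphingosine 1-phosphate, went from 18.0, 18.2 and 17.2 FPKM to 3.02, 3.46 and 2.51 FPKM (change -2.24 ± 0.13). Ifi208, of the interferon-inducible p200 family, went from 9.21, 10.6 and 8.81 FPKM to 1.00, 0.913 and 0.739 FPKM (change -2.48 ± 0.14). In each the 3 libraries of a day lay close together and the days were far apart, where the naming rule required no overlap. The collagen chain gene Col24a1 was at 11.4, 8.43 and 9.76 FPKM and then at 0.492, 0.544 and 0.497 FPKM, and Map3k7cl at 8.64 to 10.0 FPKM and then at 0.363 to 0.651 FPKM. Col24a1 and Map3k7cl passed the filter through day 0 only.

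**Figure D2:**
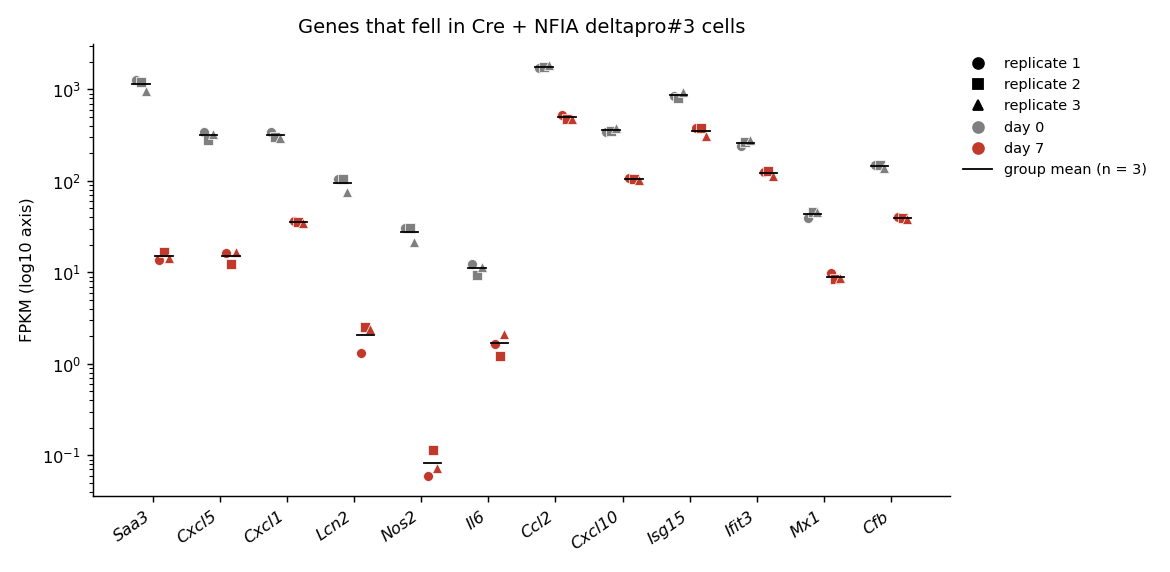
FPKM on a log10 axis of 12 genes that fell in the mutant cells, with 1 point per library (grey, day 0; red, day 7; marker shape, replicate) and the group mean of 3 libraries as a black line. The days do not overlap in any of them, which the naming rule required of Saa3, Cxcl5, Cxcl1, Lcn2 and Nos2. Saa3 and Nos2 span the widest range.

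All 21 interferon-stimulated genes listed were tested, and all 21 fell, where 18.2% of all genes did. Their changes ran from -2.16 to -0.37 with a median of -1.06, and 2 were called. The count of 21 was the same without replicate 1 of day 7, with median-of-ratios scaling and with quantile normalization. Mx1, an antiviral dynamin-like GTPase, was at 38.9, 45.8 and 45.9 FPKM at day 0 and at 9.79, 8.36 and 8.61 FPKM at day 7 (change -2.16 ± 0.15, adjusted p = 1.58e-10). Ifi44 went from 143, 155 and 164 FPKM to 55.9, 42.7 and 50.9 FPKM (change -1.62 ± 0.15). The transcription factor Irf7 went from 341, 354 and 359 FPKM to 186, 173 and 156 FPKM. Isg15, a ubiquitin-like modifier, was at 844, 812 and 946 FPKM at day 0 and at 377, 378 and 309 FPKM at day 7. No day 0 library overlapped a day 7 library in any of the 21 genes, and the days did not overlap in 6418 of all 11636 genes either.

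Promoters of falling genes were then searched for short sequences. RefSeq start sites on GRCm38.p6 gave a window from 250 bases before to 50 bases after the start for 16 of the 21 interferon-stimulated genes. The letters of the interferon-stimulated response element, TTTCNNTTTC on either strand with overlapping matches allowed, were in 11 of these 16 genes, against 3.99% of all 27025 genes with a window. The list was drawn up as interferon-stimulated genes, so an excess was likely whatever their change. The count does not bear on why they fell, which was not tested. Among called genes they were in 6 of 26 lower and 2 of 92 higher genes with a window. A κB sequence, GGGNNTTTCC on either strand, was in 4 of the 26 called lower genes (Cxcl1, Il4ra, Il6 and Steap4) and 2 of the 92 called higher genes, against 1.89% of all. The palindrome of the nuclear factor I family, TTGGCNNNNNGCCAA, was in 0 of both sets and in 12 of all 32851 windows. At that rate 0 was likely in sets of this size, so the count does not bear on NFIA binding to these genes. Each match is a run of letters, and binding was not measured here. Only promoters with a match are printed, and Cxcl10 and Saa3 are not in the interferon-stimulated list. In the following 6 promoters capitals mark TTTCNNTTTC or its reverse complement.
Ifit1 promoter, chr19:34640639-34640938, plus strand: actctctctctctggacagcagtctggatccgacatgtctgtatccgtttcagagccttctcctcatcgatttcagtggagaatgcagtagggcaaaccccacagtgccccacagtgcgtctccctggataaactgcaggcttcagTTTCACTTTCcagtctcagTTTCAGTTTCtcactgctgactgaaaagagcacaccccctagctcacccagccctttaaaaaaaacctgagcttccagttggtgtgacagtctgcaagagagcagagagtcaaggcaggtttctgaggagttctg
Ifit3 promoter, chr19:34583279-34583578, plus strand: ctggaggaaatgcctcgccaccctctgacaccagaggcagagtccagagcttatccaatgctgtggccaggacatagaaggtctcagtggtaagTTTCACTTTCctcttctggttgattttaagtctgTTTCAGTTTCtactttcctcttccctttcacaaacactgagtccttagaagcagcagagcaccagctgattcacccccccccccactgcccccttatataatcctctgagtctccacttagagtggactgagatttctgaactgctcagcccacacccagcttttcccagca
Isg15 promoter, chr4:156200769-156201068, minus strand: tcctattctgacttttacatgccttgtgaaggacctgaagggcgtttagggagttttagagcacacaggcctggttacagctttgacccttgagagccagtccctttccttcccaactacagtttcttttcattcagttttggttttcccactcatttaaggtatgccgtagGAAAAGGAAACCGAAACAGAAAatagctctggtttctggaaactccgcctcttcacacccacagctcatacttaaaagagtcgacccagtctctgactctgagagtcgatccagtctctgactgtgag
Rsad2 promoter, chr12:26456403-26456702, minus strand: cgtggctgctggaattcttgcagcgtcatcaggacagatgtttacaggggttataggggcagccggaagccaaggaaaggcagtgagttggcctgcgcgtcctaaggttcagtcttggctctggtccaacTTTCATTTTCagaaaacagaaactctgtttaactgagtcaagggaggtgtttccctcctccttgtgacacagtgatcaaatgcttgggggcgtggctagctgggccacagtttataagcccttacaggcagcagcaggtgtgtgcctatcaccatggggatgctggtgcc
Cxcl10 promoter, chr5:92348840-92349139, minus strand: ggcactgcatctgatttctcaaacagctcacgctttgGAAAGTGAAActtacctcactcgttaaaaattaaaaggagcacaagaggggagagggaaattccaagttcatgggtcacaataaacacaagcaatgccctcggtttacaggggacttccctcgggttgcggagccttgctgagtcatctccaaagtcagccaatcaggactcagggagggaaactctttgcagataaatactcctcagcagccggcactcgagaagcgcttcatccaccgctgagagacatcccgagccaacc
Saa3 promoter, chr7:46715627-46715926, minus strand: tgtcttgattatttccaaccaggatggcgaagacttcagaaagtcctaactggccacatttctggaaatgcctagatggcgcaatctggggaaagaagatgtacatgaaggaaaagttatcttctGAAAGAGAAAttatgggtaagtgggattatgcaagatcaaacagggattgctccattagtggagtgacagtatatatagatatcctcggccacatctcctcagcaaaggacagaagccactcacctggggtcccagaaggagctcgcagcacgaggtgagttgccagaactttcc
In the next 2 promoters capitals mark GGGNNTTTCC or its reverse complement.
Cxcl1 promoter, chr5:90890995-90891294, plus strand: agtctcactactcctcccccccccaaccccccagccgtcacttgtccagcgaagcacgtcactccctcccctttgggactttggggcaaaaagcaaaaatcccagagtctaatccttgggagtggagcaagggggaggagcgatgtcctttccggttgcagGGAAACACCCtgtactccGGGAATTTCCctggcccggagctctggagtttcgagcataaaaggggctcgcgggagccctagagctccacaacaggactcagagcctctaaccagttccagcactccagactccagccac
Il6 promoter, chr5:30012864-30013163, plus strand: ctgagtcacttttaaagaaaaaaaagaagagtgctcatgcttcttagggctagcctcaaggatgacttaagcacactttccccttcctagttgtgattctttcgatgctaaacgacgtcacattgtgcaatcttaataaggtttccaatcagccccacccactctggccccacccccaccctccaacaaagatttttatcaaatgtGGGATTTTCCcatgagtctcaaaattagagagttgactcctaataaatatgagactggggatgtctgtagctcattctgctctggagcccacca

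Of the genes printed here, Ifit1, whose product binds viral RNA, changed by -0.64 from day 0 to day 7 and Ifit3 by -1.09. Isg15 changed by -1.29, the antiviral enzyme gene Rsad2 by -1.40 and the chemokine gene Cxcl10 by -1.76. Ifit3 was at 241, 267 and 277 FPKM at day 0 and at 126, 128 and 112 FPKM at day 7. Cxcl10 was at 341, 354 and 382 FPKM and then at 108, 105 and 101 FPKM. In both the 3 replicates of a day lay close together and the days were far apart.

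Among genes of the mature fat cell, Adipoq, which encodes the hormone adiponectin (chromosome 16, 23146609 to 23158101), was at 0.195, 1.52 and 1.02 FPKM at day 0 and at 51.1, 141 and 158 FPKM at day 7. The groups did not overlap, and the change was 5.86 ± 0.31 in log2(FPKM + 1) with an adjusted p of 2.42e-12. Replicate 1 of day 7 lay at 34.1% of the mean of the other 2 libraries. Fabp4, the fatty acid carrier of adipocytes (chromosome 3, 10204347 to 10208576), was at 22.3, 30.4 and 26.3 FPKM at day 0 and at 494, 1271 and 1362 FPKM at day 7 (change 5.13 ± 0.30, adjusted p = 1.41e-11). In bulk RNA fewer adipocytes and less of these transcripts per cell cannot be told apart.

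Lipid droplet genes gave the largest changes as a list. Of 17 listed 13 were tested, 11 rose and 9 of them were called, against 25.2% and 1.23% of all genes, and the median was 2.21. Of the 13, 2 passed the filter through 1 day only. Cidec, which fuses lipid droplets, was at 0.233, 1.37 and 0.546 FPKM at day 0 and at 52.5, 128 and 146 FPKM at day 7 (change 5.93 ± 0.29, adjusted p = 9.00e-13). Plin1, the coat protein perilipin 1, went from 0.167, 0.425 and 0.286 FPKM to 16.8, 51.6 and 56.5 FPKM (change 4.87 ± 0.29). G0s2, an inhibitor of triglyceride lipase, went from 0.476, 1.35 and 1.02 FPKM to 41.8, 106 and 99.0 FPKM. Plin2, the droplet coat protein found in most cell types, was already at 42.3, 46.5 and 46.1 FPKM at day 0 and reached 117, 154 and 159 FPKM (change 1.64 ± 0.13), while Plin3 had a change of 0.05 and did not pass.

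All 11 lipid droplet genes that rose were lowest in replicate 1 of day 7, as were the 7 of fatty acid uptake, the 12 of fatty acid and triglyceride synthesis and the 6 adipokines. Among all 2927 genes that rose, 40.8% were lowest in replicate 1. Of the 14 contractile genes that rose, 1 was lowest there. The summed level of the adipocyte markers (Adipoq, Plin1, Retn, Cidec, Fabp4 and Lep) was 23.0 to 34.5 FPKM at day 0 and ranged from 620 to 1737 FPKM at day 7. Lep had 0 reads in all 6 libraries, which allows up to 3 reads per library. Without this replicate the lipid droplet counts stayed at 11 and 9, the median became 2.56, Adipoq changed by 6.37 and Fabp4 by 5.60, and the count of called genes went from 182 to 207.

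**Figure D3:**
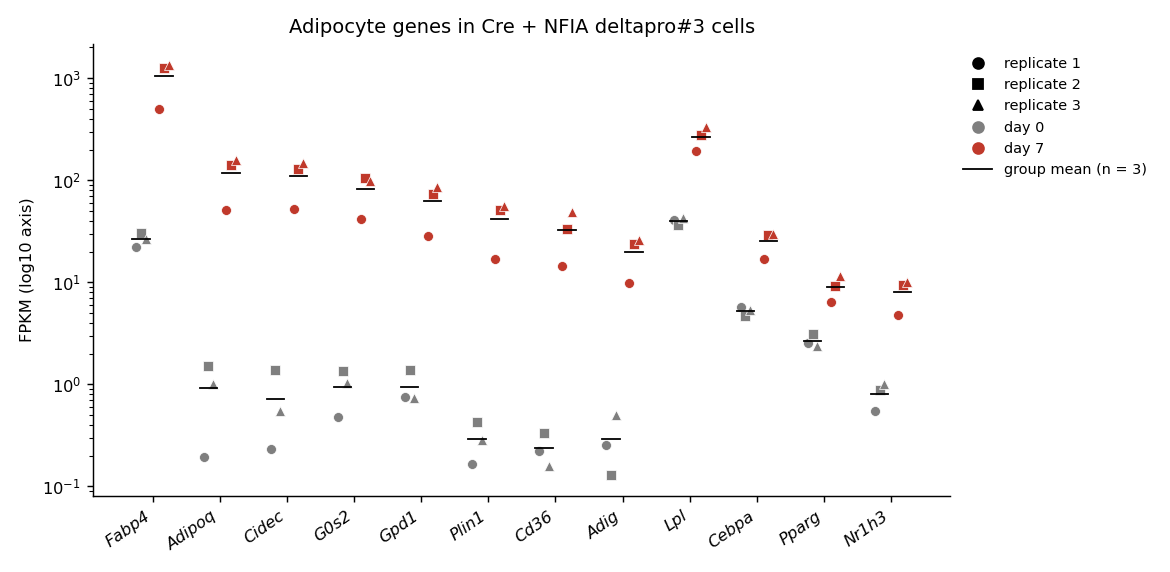
FPKM on a log10 axis of 12 adipocyte genes in the mutant cells, with 1 point per library (grey, day 0; red, day 7; marker shape, replicate) and the mean of 3 libraries as a black line. The circle of day 7, replicate 1, lies below the other 2 red points in every gene, as in Fabp4 at 494 against 1271 and 1362 FPKM.

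Further genes among the 12 largest rises were low at day 0 and lowest in replicate 1 of day 7. Gpd1 was at 0.749, 1.37 and 0.731 FPKM at day 0 and at 28.1, 73.1 and 85.1 FPKM at day 7. Aldh1a7, an aldehyde dehydrogenase gene, went from 0.195, 0.474 and 0.190 FPKM to 15.7, 27.9 and 33.3 FPKM (change 4.31 ± 0.20), and Adig, adipogenin, from 0.254, 0.129 and 0.496 FPKM to 9.90, 23.8 and 25.9 FPKM. The cysteine dioxygenase gene Cdo1 went from 1.56, 1.16 and 1.70 FPKM to 18.0, 44.9 and 47.1 FPKM, and the alcohol dehydrogenase gene Adh1 from 0.573, 0.872 and 0.783 FPKM to 12, 27.2 and 31.3 FPKM. Every day 7 library exceeded every day 0 library in all 5 genes, as the rule that named them required.

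In fatty acid uptake and binding 16 of 17 genes were tested, and 7 rose, 4 of them called, while 3 fell. Among all genes 25.2% rose, 1.23% were called higher and 18.2% fell. Of the 16, 1 passed the filter through 1 day only, Cd36. Cd36, a fatty acid translocase, went from 0.225, 0.332 and 0.160 FPKM to 14.4, 33.6 and 48.7 FPKM (change 4.59 ± 0.26), and the triglyceride-hydrolysing enzyme gene Lpl from 41.0, 36.6 and 43.1 FPKM to 193, 275 and 332 FPKM (change 2.67 ± 0.15). Acsl1, which activates fatty acids with coenzyme A, changed by 1.87. In fatty acid and triglyceride synthesis 12 of 19 tested genes rose, 3 of them called, and 4 fell, and 1 of the 19 passed the filter through 1 day only. The 3 called were Gpd1, which makes glycerol phosphate (change 4.89), the acyltransferase gene Agpat2 (change 2.53) and the glycerol channel gene Aqp7 (change 1.74). Among enzymes of new fatty acid synthesis, the first 3 named here after their values were seen, the malic enzyme gene Me1 rose by 1.08 and Acss2, which makes acetyl-CoA from acetate, by 0.84, while Acly, which makes it from citrate, changed by -0.55 (adjusted p = 1.16e-06). Fasn, the fatty acid synthase gene, was at 67.6, 69.0 and 65.9 FPKM at day 0 and at 67.6, 89.7 and 87.0 FPKM at day 7, and Acaca, acetyl-CoA carboxylase, had a change of 0.10. Fasn and Acaca did not pass the test (adjusted p = 0.196 and 0.521).

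Of 12 adipokines 9 were tested. Adipoq, Retn (resistin, change 3.05) and Cfd (adipsin, change 2.87) were called higher, and 6 rose in all. Retn, Cfd and Rbp4 passed the filter through 1 day only. Retn was at 0.187, 0.823 and 0.244 FPKM at day 0 and at 5.60, 14.1 and 14.2 FPKM at day 7. Lcn2, also listed there, was called lower. PPAR targets shared by many cell types rose in 11 of 15 tested cases, 2 of them called, and 0 fell (limma, also 0 at an unadjusted p under 0.05 and with voom). Among all genes 25.2% rose, 1.23% were called higher and 18.2% fell. Angptl4, an inhibitor of lipoprotein lipase, went from 12.9, 12.1 and 10.6 FPKM to 37.3, 51.2 and 52.0 FPKM (change 1.88 ± 0.14), and Pdk4, which restrains pyruvate dehydrogenase, changed by 0.87.

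Among the regulators, Pparg, the receptor gene at the centre of adipogenesis, was at 2.52, 3.12 and 2.39 FPKM at day 0 and at 6.38, 9.29 and 11.4 FPKM at day 7. The groups did not overlap, and the change of 1.42 ± 0.18 (adjusted p = 1.25e-06) was below 3-fold. Without replicate 1 of day 7 it was 1.62, past 3-fold. Cebpa went from 5.68, 4.72 and 5.34 FPKM to 16.8, 29.1 and 29.5 FPKM (change 2.03 ± 0.18) and Nr1h3, the oxysterol receptor LXRα gene, from 0.552, 0.879 and 1.00 FPKM to 4.80, 9.38 and 9.99 FPKM (change 2.28 ± 0.20), and both were called. The early factor Cebpd fell from 60.2, 62.3 and 59.6 FPKM to 7.51, 12 and 8.72 FPKM (change -2.59 ± 0.19), and Cebpb changed by -0.77. In all 20 of 22 listed adipogenic transcription factors were tested, 3 of them through 1 day only. Of the 20, 9 rose, 2 of them called, and 6 fell, beside 25.2%, 1.23% and 18.2% of all genes. Their median was 0.11, and without replicate 1 of day 7, 4 of those higher were called.

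The thermogenic list was hardly measured at all. Of 19 genes 7 passed the filter, 2 of them through 1 day only, and Adrb3 is 1 of these. Of the 7, 3 rose, beside 25.2% of all genes. These 3 stayed below 3-fold, while without replicate 1 of day 7, Adrb3 reached it. Ucp1 (chromosome 8) had 1 read in 1 day 7 library and 0 in the other 5, which allows up to 3 reads per library, 0.235 to 0.257 RPM (reads per 1000000). Ppargc1a, a coactivator of mitochondrial genes, was at or under 0.201 FPKM in every library. The genes that rose were Adrb3, the fat cell adrenergic receptor (0.115, 0.0582 and 0.0560 FPKM, then 1.04, 2.43 and 2.40 FPKM), Ppargc1b (change 1.38) and the brown fat factor Ebf2 (change 0.76). Prdm16, Zic1, Esrra and Cox7a1 were tested and did not pass.

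A second group of rising genes encodes extracellular matrix, and 52.0% of the proteoglycans that rose were lowest in replicate 1 of day 7. Of 37 tested matrix proteoglycans and glycoproteins 25 rose, 6 of them called, and 4 fell, beside 25.2%, 1.23% and 18.2% of all genes, with a median of 0.86. Of the 37, 5 passed the filter through 1 day only, Mgp among them. Without replicate 1 of day 7, 22 rose, 8 of them called, and 2 fell. Mgp, matrix Gla protein, was at 0.390, 0.264 and 0.888 FPKM at day 0 and at 18.3, 15.1 and 17.2 FPKM at day 7 (change 3.58 ± 0.16, adjusted p = 2.54e-13). The proteoglycan gene Prelp went from 7.31, 7.46 and 6.44 FPKM to 51.0, 68.0 and 55.1 FPKM (change 2.86 ± 0.12). Day 7 libraries differed from each other by far less than from day 0. Fibronectin, Fn1, one of the most abundant transcripts at 1277 to 1396 FPKM at day 0, was at 1304 to 1381 FPKM at day 7, and the groups overlapped.

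The basement membrane chains Col4a1 and Col4a2 rose by 2.57 ± 0.08 and 2.30 ± 0.09, Col4a1 from 40.8, 37.9 and 37.5 FPKM to 217, 258 and 233 FPKM. Col15a1 (change 3.64), Col6a3 (change 2.35) and Col12a1 (change 1.77) were also called. Of the fibrillar chains, Col3a1 rose by 0.59 and Col5a3 by 1.34. Among chains of both kinds that did not pass were Col4a5, Col4a6, Col5a1, Col5a2, Col1a1 and Col1a2, at 839 to 896 and 790 to 943 FPKM for Col1a1 on the 2 days. Of 20 tested collagens 12 rose, 5 of them called, and 2 fell, beside 25.2%, 1.23% and 18.2% of all genes. Their median was 0.53, and 2 of the 20 passed the filter through 1 day only. The list does not hold the collagen chain gene Col24a1, which was called lower, as given above. Of 24 matrix proteases and inhibitors tested, 13 rose and 7 fell, and 1 of the 24 passed through 1 day only. Those called were Ctsk, cathepsin K (change 2.40), Mmp3 (change 2.02) and the gelatinase gene Mmp2, which went from 70.8, 72.2 and 71.9 FPKM to 207, 225 and 237 FPKM (change 1.62 ± 0.06, adjusted p = 7.00e-15).

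Signalling genes of the stroma followed. Gdf10, a ligand of the BMP family (chromosome 14), was at 0.364, 0.479 and 0.314 FPKM at day 0 and at 15.4, 20.5 and 20.4 FPKM at day 7 (change 3.82 ± 0.12, adjusted p = 7.58e-16). Grem1, a secreted BMP antagonist, went from 7.29, 5.51 and 6.12 FPKM to 34.2, 29.7 and 32.7 FPKM (change 2.19 ± 0.18). Of 30 tested genes of Wnt, BMP and TGF-β signalling 18 rose and 9 fell, beside 25.2% and 18.2% of all genes. With Inhbb and Ltbp2, 4 of the 30 were called (1.23% of all genes), and Gdf10, Dkk2 and Wnt5a passed the filter through 1 day only. Of 15 tested insulin and IGF genes 10 rose and 1 fell, and 2 of the 15 passed the filter through 1 day only, Igf1 among them. Igfbp2, an IGF binding protein, was at 1.53, 1.32 and 1.11 FPKM and then at 20.7, 35.5 and 24.8 FPKM (change 3.56 ± 0.17), and Igf1 went from 0.138, 0.140 and 0.135 FPKM to 2.98, 3.95 and 4.98 FPKM.

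Precursor markers did not move as one. Thy1 rose from 14, 12.6 and 13.1 FPKM to 85.6, 109 and 66.1 FPKM (change 2.60 ± 0.12), Dlk1, a marker of preadipocytes, from 0.700, 0.643 and 0.618 FPKM to 5.06, 5.98 and 5.60 FPKM, and Eng by 1.69. Ly6a, which encodes the Sca-1 antigen, fell from 1874, 1894 and 1925 FPKM to 1230, 1182 and 995 FPKM (change -0.75 ± 0.07) and Cd34 by -0.99. Pdgfra had a change of 0.25 (adjusted p = 0.0420), which did not hold with median-of-ratios scaling, and Pdgfrb a change of 0.18 that did not pass. In all 10 of 17 tested markers rose and 3 fell, beside 25.2% and 18.2% of all genes. Of the 17, 1 passed the filter through 1 day only, Dlk1.

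Contractile genes rose in part. Acta2, smooth muscle actin, was at 80.5, 76.1 and 75.1 FPKM at day 0 and at 262, 280 and 228 FPKM at day 7 (change 1.72 ± 0.09, adjusted p = 4.89e-12). Myl9, a myosin light chain, went from 21.6, 18.5 and 19.0 FPKM to 77.5, 80.8 and 68.1 FPKM (change 1.89 ± 0.11), and Tagln, transgelin, from 42.8, 37.7 and 38.7 FPKM to 136, 149 and 119 FPKM (change 1.73 ± 0.11). With Actg2 (change 1.64) these were the 4 called, and without replicate 1 of day 7, 3 were called. Of 23 tested genes 14 rose and 4 fell, beside 25.2% and 18.2% of all genes, Ankrd1 among the latter with -0.98. Skeletal muscle genes were near absent. Of 27 listed 5 were tested, Myod1 had 0 reads in all 6 libraries, Myog had at most 2, and Mef2a and Acta1 rose by 0.77 and 0.65.

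**Figure D4:**
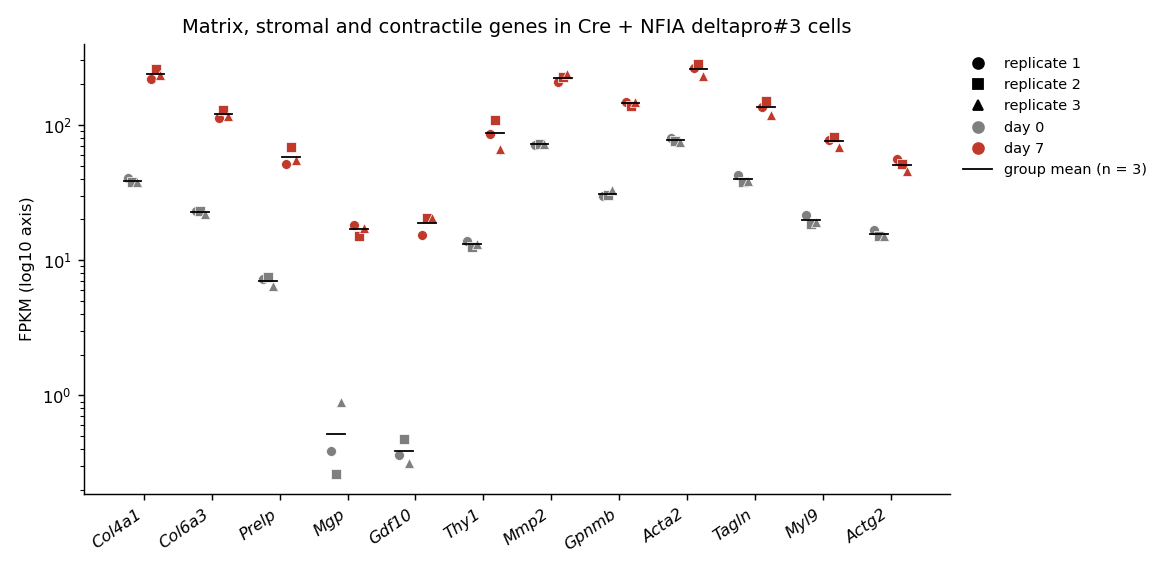
FPKM on a log10 axis of 12 matrix, stromal and contractile genes in the mutant cells, with 1 point per library (grey, day 0; red, day 7; marker shape, replicate) and the mean of 3 libraries as a black line. The 3 replicates of each day lie together and the days do not overlap, as in Acta2 at 75.1 to 80.5 and 228 to 280 FPKM.

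Of 45 respiratory chain and ATP synthase genes 7 rose and 0 fell by limma (1 at an unadjusted p under 0.05 and 1 with voom), with a median of 0.05 beside 0.04 for all genes, and 2 rose and 1 fell with median-of-ratios scaling, and 13 rose and 0 fell with quantile normalization. Cycs, cytochrome c, had the largest change, 0.45, and Ndufa4 was at 307, 291 and 348 FPKM at day 0 and at 304, 313 and 279 FPKM at day 7. Of 34 genes of the TCA cycle and branched-chain amino acid catabolism 16 rose (25.2% of all genes did) and 1 fell, Bckdhb by 0.88 and Idh3a by 0.84 among those that rose. Genes of cholesterol synthesis and uptake fell in 9 of 22 tested cases, beside 18.2% of all genes. In this list 3 rose, among them Insig1, which restrains sterol synthesis, by 0.64.

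Of 38 cell cycle and DNA replication genes 7 rose and 10 fell, beside 25.2% and 18.2% of all genes, with a median of -0.02. Without replicate 1 of day 7, 4 rose and 10 fell, and with median-of-ratios scaling 4 and 13. The list held 1 called gene, Ccnd1, the cyclin of early G1, which went from 4.84, 4.14 and 4.56 FPKM to 22, 21.0 and 16 FPKM (change 1.90 ± 0.10). Top2a was at 60.9 to 70.7 FPKM on either day, and the groups overlapped. Of 16 cell cycle inhibitors and p53 targets 8 rose, Cdkn1a by 0.49, and 1 fell, Cdkn2a, by -0.53.

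The cocktail held T3 to the end and dexamethasone in its opening medium only. They are ligands of the thyroid hormone and glucocorticoid receptors, in that order. All 4 tested thyroid hormone targets rose, by 0.67 to 1.08, with Klf9 going from 8.65, 9.23 and 8.57 FPKM to 16.6, 16.6 and 19.6 FPKM. Of 17 glucocorticoid targets 7 rose and 8 fell, and 2 of the 17 passed the filter through 1 day only. Fkbp5 rose by 0.81 and Tsc22d3 by 0.80, while Lcn2 and Cebpd were called lower and Mgp, counted with the matrix genes too, higher, and without replicate 1 of day 7, 2 of this list were called higher. Of 23 antioxidant and detoxification genes 16 rose and 5 fell, and without replicate 1 of day 7, 15 rose and 3 fell. Mgst3 (change 2.02) and the retinal dehydrogenase gene Aldh1a1 (change 1.92) were called higher, and the carbonyl reductase gene Cbr2 went from 32.0, 27.5 and 24.1 FPKM to 2.27, 2.75 and 2.78 FPKM (change -3.00 ± 0.14). Of 15 circadian clock genes 9 rose, Cry1 by 0.77, and 2 fell (8 and 1 without that replicate). Of 16 genes of unfolded protein and amino acid stress 5 rose, Trib3 by 0.76, and 4 fell, near the shares of all genes. Among all genes 25.2% rose and 18.2% fell, and 1.23% and 0.335% were called.

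The design asks whether these changes differ between cell types, and the day 0 to day 7 change of the mutant cells was compared with that of each other cell type by interaction. Against libraries labelled Cre, which lack any NFIA transgene, 77 genes were called, 75 with a lower change in the mutant cells (0.645% of the genes tested) and 2 with a higher one (0.0172%). With voom 83 were called, 64 lower and 19 higher, and 41 of them were among the 77. Without replicate 1 of day 7 of the mutant the count was 51, without replicate 2 or 3 of Cre at day 7 it was 51 and 117. The comparison with Cre + NFIA called 714, of which 304 had a higher change (2.61%) and 410 a lower one (3.52%). Median-of-ratios scaling made these 208 and 478, and the balance turned with limma voom on recovered reads (779 and 463) and a pseudocount of 0.1 (700 and 474). Against ctrl 673 were called, 241 higher (2.07%) and 432 lower (3.71%), and with that scaling 158 and 518, while voom gave 642 and 496 and a pseudocount of 0.1 gave 568 and 502. The median difference over all genes was 0.13 against Cre + NFIA and 0.12 against ctrl as deposited and 0.0075 and 0.0011 with median-of-ratios scaling, so small positive differences rest on scaling. The 3 comparisons share the mutant libraries. Genes were admitted through the mutant libraries only, which can leave out genes high in the other cell types alone. With genes at 1 FPKM or more in at least 3 of all 24 libraries, 4 were called higher and 93 lower against Cre. That filter, added after seeing the data, gave 312 and 575 against Cre + NFIA and 243 and 564 against ctrl.

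Fabp4 reached a day 7 mean of 1042 ± 477 FPKM (SD, n = 3) in the mutant cells, 4963 in libraries labelled Cre, 14618 in Cre + NFIA and 17544 in ctrl. Its change was lower by 3.24 than in Cre (limma adjusted p = 3.09e-05), by 4.45 than in Cre + NFIA and by 5.25 than in ctrl. For Adipoq the day 7 means were 117 ± 57.6 FPKM in the mutant cells and 499, 1786 and 1887 FPKM in the other cell types in that order. Of 13 lipid droplet genes 11 had a lower change than in Cre, where 10.1% of all genes did, and 11 did without replicate 1 of day 7. Pparg reached 9.02 ± 2.52 FPKM in the mutant cells, 22.4 in Cre, 60.0 in Cre + NFIA and 52.0 in ctrl, a change lower by 1.17, 1.67 and 2.03. Orm1, an acute-phase gene also made by fat cells, was at 3.19, 4.81 and 4.82 FPKM at day 0 and at 1.87, 5.73 and 4.76 FPKM at day 7 in the mutant cells, and the days overlapped. Its day 7 means elsewhere were 23.8 FPKM in Cre, 172 in Cre + NFIA and 132 in ctrl.

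Respiratory chain genes changed less in the mutant cells than in each other cell type. Of 45, 40 had a lower change than in libraries labelled Cre (10.1% of all genes) and 45 than in Cre + NFIA (23.0%) and ctrl (25.3%), and 0 had a higher one by limma in any of the 3 comparisons (also 0 at an unadjusted p under 0.05 and with voom). Without replicate 1 of day 7 the first count was 35, and with median-of-ratios scaling it was 38. The median change was 0.05 in the mutant, 0.61 in Cre, 1.36 in Cre + NFIA and 1.42 in ctrl. Cycs went to a day 7 mean of 25.2 ± 1.72 FPKM in the mutant cells and 44.2, 133 and 139 FPKM in those cell types. In the TCA cycle and branched-chain amino acid list 28 of 34 genes had a lower change than in Cre, and 33 than in Cre + NFIA and in ctrl.

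**Figure D5:**
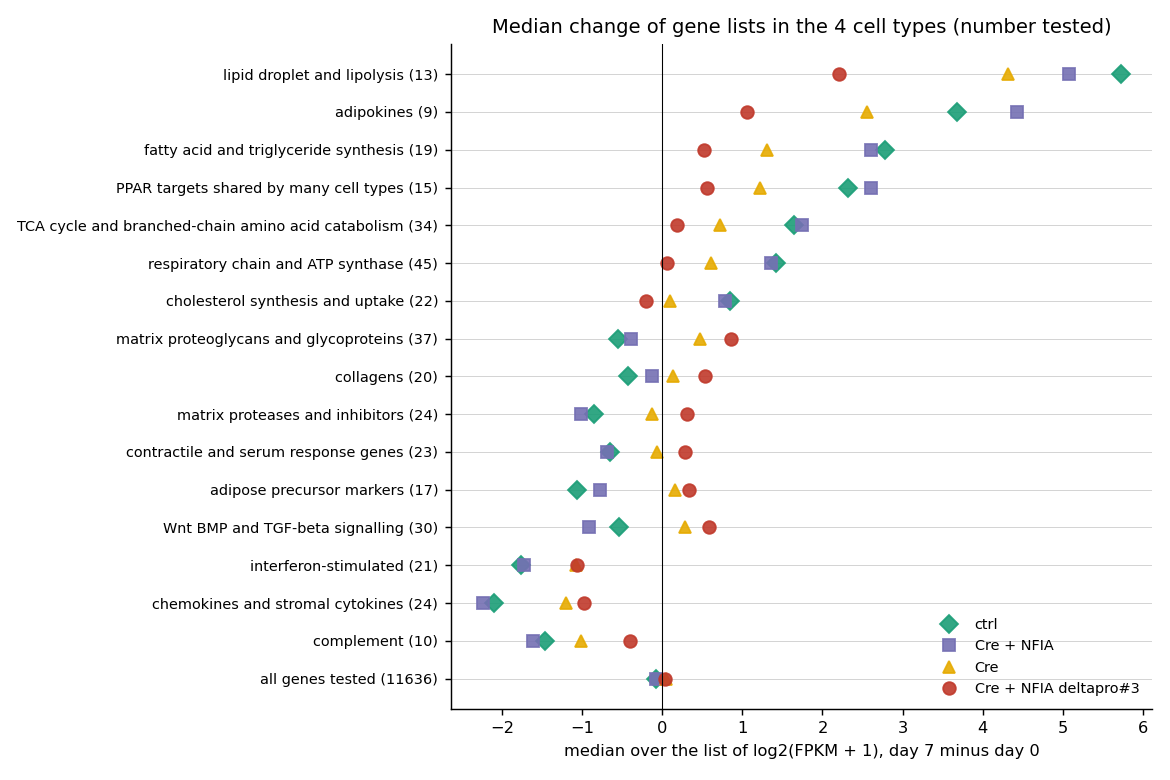
Median over each gene list of the change in log2(FPKM + 1) from day 0 to day 7 (x axis) in the 4 cell types, with the number of tested genes in brackets. The mutant cells (red circles) lie lowest in the lipid and mitochondrial lists, as in lipid droplet genes at 2.21 beside 4.32 to 5.72, and highest in the matrix and contractile lists.

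Of 23 contractile genes 18 had a higher change in the mutant than in libraries labelled Cre, where 8.12% of all genes did, and 17 with median-of-ratios scaling and 16 without replicate 1 of day 7. Against Cre + NFIA (37.0% of all genes) and ctrl (38.1%) 21 were higher, 20 in each with median-of-ratios scaling. These counts are of changes from day 0, and day 7 levels were not tested between cell types. Acta2 reached 257 ± 26.1 FPKM at day 7 in the mutant cells, 203 in Cre, 83.6 in Cre + NFIA and 144 in ctrl. Of 37 proteoglycans and glycoproteins 18 had a higher change than in Cre and 1 a lower one. Of 20 collagens 7 were higher and 3 lower, beside 8.12% and 10.1% of all genes. The genes with the largest higher differences were Igfbp3 and Cemip against Cre, Gpnmb, Clec3b, Grem1 and Timp3 against Cre + NFIA, and Nov, Cpxm1, Ptn and Pamr1 against ctrl. Grem1 was at a day 7 mean of 32.2 ± 2.34 FPKM in the mutant cells, 14.1 in Cre, 2.55 in Cre + NFIA and 2.12 in ctrl. Interferon-stimulated genes showed another pattern. Of the 21, 0 differed from Cre by limma, with 3 higher and 2 lower at an unadjusted p under 0.05, 0 with voom and 1 with quantile normalization. The mutant's change was higher for 15 of 21 than in Cre + NFIA (37.0% of all genes) and lower for 4 (23.0%). It was higher for 15 than in ctrl (38.1%).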

How the data were processed

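RNA-seq libraries (stranded poly(A) RNA) had been made from 8 groups of 3 samples. The deposited values were FPKM per gene, which the authors made by aligning reads to mm9 with STAR (version 2.5.3a in the submitters' processing notes), keeping uniquely aligned reads and counting them per gene on the matching strand, so reads of near-identical paralogs (Bglap and Bglap2) are lost or uncertain. Non-zero values of up to 100 reads all (100%) came out as whole reads within 0.01 read, and larger ones were not checked. The 24 libraries held 7732829 to 14622189 reads. The 3-read floor covers counting error only. Of the rows, 26 carry date-like symbols and are not named, and 4 called genes shorter than 200 bases (Mir1942, Mir7666, Mir99b and Snord68) are uncertain.

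Values were transformed to log2(FPKM + 1), a scale on which fold changes of low genes are understated. All 24 libraries were fitted with limma 3.58.1 with trend in R 4.3.3 (16 residual degrees of freedom), and p-values were two-sided and Benjamini-Hochberg adjusted over 11636 genes. Simulated data with 200 of 11598 genes changed 6-fold gave 199 recovered and 3 false calls for mutant day 7 against day 0. The changed genes were at 5 FPKM or more, the extra spread was set alike for all genes, and no library stood apart. Recovery of low genes, or of changes near 3-fold, was thus not measured. The members and lists were chosen with earlier results of these data known. Genes named are the 12 called genes with the largest change in each direction (length of at least 200 bases, higher mean of at least 5 FPKM, days not overlapping), the first 2 genes of each of 29 lists with up to 4 called ones (or, with none called, up to 3 past the adjusted p), up to 4 called genes per direction of each interaction, and genes the study is about. Other genes, such as Cxcl10, Isg15, Ifit1, Ifit3, Rsad2, Ly6a and Cd34, were chosen after their values were seen. Positions are from GENCODE vM1 on NCBIM37. Chi-square per degree of freedom between libraries of a day was 2.17 to 15.1, above sampling noise. Alternatives tried were 2 pseudocounts, filters, scalings, models, thresholds, limma voom on recovered reads and each library left out. Some genes that this rule names are not reported here.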

Additional observations from a re-analysis of the deposited data

Results flagged for a closer look

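The interaction tests showed differences between cell types in the change from day 0 to day 7, and in each the mutant's change minus the other's is given in log2(FPKM + 1). Against libraries labelled Cre 77 genes were called. Igfbp3, a binding protein of IGFs, differed by 1.89 and Cemip, a hyaluronan-degrading protein gene, by 1.68, while Cidec differed by -2.68, Fabp4 by -3.24, and the acute-phase genes Hp and Orm1 by -2.68 and -3.14. Cemip fell in the mutant cells (15.2, 14.4 and 13.3 FPKM, then 5.96, 6.23 and 5.65 FPKM) and fell further in Cre.

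Against Cre + NFIA 714 genes were called. Gpnmb differed by 3.19, Clec3b by 3.09, Grem1 by 3.03 and the metalloprotease inhibitor gene Timp3 by 3.02. Cbr2 differed by -6.80, the retinol carrier gene Rbp4 by -6.14, Ppp1r1a by -5.75 and Retn by -5.66. Cbr2 was at a day 7 mean of 2.60 FPKM in the mutant cells and at 185 FPKM with full-length NFIA.

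Against ctrl 673 genes were called. Nov differed by 3.92, Cpxm1 by 3.24, Ptn by 3.19 and Pamr1 by 3.14, and Orm1 by -5.44, Fabp4 by -5.25, Cfd by -5.21 and Car3, carbonic anhydrase 3, by -5.16. Car3 had 0 reads in the 3 mutant day 0 libraries and was at 1.96, 2.60 and 5.36 FPKM at day 7, at least 21.1-fold higher against a floor of 3 reads per library.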

How the results depend on the processing

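For mutant day 7 against day 0, 182 genes were called, and 367 with a pseudocount of 0.1, 67 with 5, 572 at 2-fold, 5045 without a fold threshold and 394 with limma voom on recovered reads. Settings added after seeing the data and without a fold threshold gave 4958 (median-of-ratios) and 5011 (quantile). Leaving out 1 library gave 176 to 207. For the difference from Cre (77) these settings gave 118, 26, 260, 2115 and voom 83, then 2023 and 2323, a mean FPKM of at least 5 gave 45, and leaving out 1 library gave 51 to 117. For the difference from Cre + NFIA (714) they gave 1174, 362, 2099, 6983 and voom 1242, then 6790 and 6971, and leaving out 1 library 684 to 743. For the difference from ctrl (673) they gave 1070, 369, 2121, 7380 and voom 1138, then 7306 and 7183, and leaving out 1 library 610 to 750. Replicate numbers were not used to pair the samples, and no label says whether they mark shared cultures. Deviations of same-numbered mutant libraries from their group means correlated at -0.04 to -0.01. In ctrl these correlations were -0.34 to -0.14, and in Cre and Cre + NFIA -0.05 to 0.08. Such values do not exclude shared cultures. The replicate block gave 182, 76, 714 and 674. Of 146 named and tested genes, those that changed sign had all missed the test. With median-of-ratios scaling Col1a1 was at -0.052, Fn1 at -0.046 and Ndufb5 at -0.018, and with quantile normalization Col1a2 was at 0.067, Nfib at -0.25 and Top2a at 0.0026. With 1 library left out Cdkn1b ranged from -0.14 to 0.044, Col1a1 from -0.054 to 0.073, Fn1 from -0.016 to 0.048, Ndufb5 from -0.018 to 0.095, Nfib from -0.15 to 0.23, Orm1 from -0.36 to 0.26 and Top2a from -0.080 to 0.026. The fall of Hp (-0.80) was lost without replicate 1 of day 7 (-0.40, adjusted p = 0.206). The cause of these moves was not tested. Depth limits statements on Ucp1, Lep, Myod1 and Myog, which had at most 2 reads in any mutant library.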

Other observations

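Among the rising genes outside the lists, Gpnmb, a membrane glycoprotein gene of macrophages and bone cells, was at 29.8, 30.5 and 32.8 FPKM in the mutant cells at day 0 and at 147, 138 and 147 FPKM at day 7. The carboxypeptidase-like gene Cpxm1 went from 6.10, 5.48 and 5.47 FPKM to 30.4, 31.2 and 28.4 FPKM, and Nov, a CCN matricellular protein gene, from 3.97, 4.13 and 4.07 FPKM to 22.9, 19.6 and 19.5 FPKM. The osteocalcin genes Bglap and Bglap2, which are near-identical copies, were at 2.51 to 3.11 and 5.68 to 7.95 FPKM at day 0 and at 18.6 to 21.9 and 55.4 to 62.4 FPKM at day 7, while Ibsp and Acan had at most 3 reads. Bglap and Bglap2 were chosen after their values were seen. Bglap is 1 of the 6 bone and cartilage markers, of which 3 were tested and 1 rose.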
